A study of Mus musculus with 2 samples.

Results

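The genes described here encode 9 proteins of the red cell surface: band 3 (Slc4a1), glycophorin C (Gypc), the Rh proteins Rhd and Rhag, the Kell protein (Kel), Xk, Ermap, Icam4 and Cd47. They were the rows of the gene tables whose Ensembl identifiers carry these symbols in GENCODE, and all 9 were found among 43346 Ensembl genes in each of the 2 libraries. The libraries were made from rRNA-depleted total RNA of erythroblasts, the nucleated precursors of red cells. The mice were C57BL/6J males, 5 to 6 weeks old. The labels call the cells primary, give no allele or treatment, and name a protocol for isolation from bone marrow. There is 1 group with 2 biological replicates. These are separate biosamples that refer to the same donor record, so their spread can include a technical part, and pooling of animals is not stated. The labelled size range was 200 to 764 in replicate 1 and 138 to 1000 in replicate 2, without a unit. The study has no second condition to set against this group, so no test was run and no p-value is given. The questions are how much RNA of each membrane protein these cells hold, in what order, as which transcripts, and how closely the replicates match.

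Blood group antigens are carried by red cell membrane proteins with work of their own. Band 3 exchanges chloride for bicarbonate, which lets blood carry carbon dioxide, and anchors the membrane to the spectrin skeleton through ankyrin. Around it sits a complex with the Rh proteins, CD47 and ICAM4, while a second complex at the skeletal junctions ties glycophorin C to protein 4.1. Kell and XK form a pair held by a disulfide bond, and ERMAP, a protein related to the butyrophilins, carries the Scianna antigens. Red cells lose their nucleus, so their membrane proteins are made largely in the erythroblast and reticulocyte.

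The stretches before the start sites are shown because GATA1, the main transcription factor of red cell genes, binds short GATA sequences, and because most of the genes here held those letters close to the start. RefSeq promoter windows on GRCm38.p6 were searched for 7 of the 9 genes, each covering 250 bases before the RefSeq start and 50 after. Slc4a1 and Gypc were left out of this search, so whether they hold such letters was not tested. The letters AGATAA or TGATAA, on either strand, stood in the 250 bases before the start of Ermap, Rhd, Kel, Icam4 and Rhag and not in those of Cd47 or Xk. This is 5 of 7 genes, against 16.6% of all 32817 windows in the table. Kel held the letters at 2 places, 56 and 19 bases before its RefSeq start. The other distances to the RefSeq start were 67 bases in Ermap, 43 in Rhd, 43 in Icam4 and 31 in Rhag. The following 4 sequences run 5′ to 3′ on the strand of each gene and end just before its most upstream GENCODE M21 start. GATA letters are in capitals, and TTATCA is TGATAA read on the other strand. The second match of Kel crosses the GENCODE start, so its stretch ends within that match, which is left in lower case.
Ermap, chr4:119190012-119190245, minus strand: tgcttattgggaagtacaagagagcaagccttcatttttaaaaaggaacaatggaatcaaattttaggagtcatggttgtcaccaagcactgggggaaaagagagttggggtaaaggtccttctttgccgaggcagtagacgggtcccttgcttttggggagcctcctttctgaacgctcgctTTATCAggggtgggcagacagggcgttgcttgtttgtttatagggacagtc
Rhd, chr4:134864286-134864535, plus strand: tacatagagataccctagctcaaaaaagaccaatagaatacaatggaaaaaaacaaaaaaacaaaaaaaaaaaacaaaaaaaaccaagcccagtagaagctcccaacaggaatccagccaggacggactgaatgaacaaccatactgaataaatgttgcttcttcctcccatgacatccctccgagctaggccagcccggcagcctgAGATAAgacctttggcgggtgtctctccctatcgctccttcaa
Kel, chr6:41704340-41704575, minus strand: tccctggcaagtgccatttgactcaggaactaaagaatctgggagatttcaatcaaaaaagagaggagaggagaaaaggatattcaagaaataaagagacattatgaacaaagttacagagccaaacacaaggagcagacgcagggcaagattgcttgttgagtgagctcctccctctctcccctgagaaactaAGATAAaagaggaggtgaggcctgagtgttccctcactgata
Rhag, chr17:40810899-40811125, plus strand: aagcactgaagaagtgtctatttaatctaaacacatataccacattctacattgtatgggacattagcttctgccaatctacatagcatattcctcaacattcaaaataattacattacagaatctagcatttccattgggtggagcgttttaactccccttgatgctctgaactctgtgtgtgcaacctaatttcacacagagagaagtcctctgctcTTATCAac

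In these stretches the capitals lie 51 bases before the GENCODE start in Ermap, 43 in Rhd, 42 in Kel and 8 in Rhag. The match of Icam4 lies downstream of its GENCODE start, so its stretch is not shown. Rhd and Kel hold AGATAA on the gene's own strand, while Ermap and Rhag hold TGATAA on the other strand. Letters of the CACCC type, which KLF1 binds and which were searched as CACACCC or CCNCNCCC on either strand, stood before 3 of 7 genes, Icam4, Cd47 and Xk, against 47.7% of all windows. In Xk, 10 of 13 overlapping matches lay in 1 run of G. Such matches are letters in a window and say nothing of binding in these cells.

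Replicate 1 held 37312624 expected counts, and replicate 2 held 22464724. Expected counts are reads assigned to genes by estimate. A count of 0 allows up to 0.0804 CPM (counts per 1000000) in replicate 1 and 0.134 in replicate 2, and these limits and all intervals below cover counting error only. Deposited TPM (per 1000000 transcripts) covers all listed features, and nuclear protein-coding genes held 11.3% in replicate 1 and 6.89% in replicate 2. Levels are therefore given as coding-scaled TPM, deposited TPM divided by its total over 21461 nuclear protein-coding genes and multiplied by 1000000. Values in pairs are those of replicate 1 and replicate 2, in that order, and ± is the SD over both (n = 2). All 9 erythroblast markers were detected, with summed levels of 394600 and 336100 coding-scaled TPM. So were all 10 neutrophil markers, with sums of 20090 and 19700. Most of the erythroblast sum was globin, with Hba-a2 alone at 283100 and 235800. The erythroblast markers other than globins ran from Alas2 at 3589 and 4077 down to Gata1 at 52.7 and 30.8. Neutrophil markers ran from S100a8 at 8719 and 7420 down to Cebpe at 56.1 and 29.3, so the sums do not give shares of cells. Of the other marker lists, 7 of 8 genes of monocytes and macrophages were detected, with sums of 614.5 and 361.3, and 4 of 7 of megakaryocytes, with sums of 122.0 and 144.3. B cells had 1 of 5, T and NK cells 1 of 5 and endothelium with kidney epithelium 1 of 4, with sums of at most 25.3. Pax5, Cd3d, Cd8a, Cdh5, Umod and Slc12a1 had 0 counts in both libraries.

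All 9 membrane protein genes were detected, that is, reached at least 1 coding-scaled TPM in each library, against 43.9% of nuclear protein-coding genes. Their median level was 852.7 coding-scaled TPM in replicate 1 and 764.2 in replicate 2, while the protein-coding genes above 0 had medians of 7.02 and 6.96. Together they held 1.19% of protein-coding TPM in replicate 1 and 1.34% in replicate 2, and Slc4a1 alone made up 57.5% and 59.5% of that. The highest level was 330.4 times the lowest in replicate 1 and 219 times in replicate 2, so genes whose proteins sit in the same complexes differed widely in RNA. In bulk RNA, fewer cells of a type and less RNA per cell cannot be told apart.

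Slc4a1 (ENSMUSG00000006574, chromosome 11, 102348824 to 102366203, minus strand), the anion exchanger and skeletal anchor that carries the Diego antigens in humans, had 438945 and 249335 expected counts. Its levels of 6811 and 7957 coding-scaled TPM ranked 7 and 6 among 12895 protein-coding genes above 0. At a mean of 7384 ± 810.3 (SD, n = 2) it stood far above Ermap, the next of the 9, at 1323 ± 89.0. Gypc (ENSMUSG00000090523, chromosome 18, 32528322 to 32560034, minus strand) encodes glycophorin C, a small sialoglycoprotein that binds protein 4.1 and carries the Gerbich antigens in humans. It had 6509 and 3324 counts, or 224.5 and 214.8 coding-scaled TPM, a mean of 219.6 ± 6.83 (SD, n = 2). Per deposited TPM there were 30.3 Slc4a1 transcripts for each of Gypc in replicate 1 and 37.0 in replicate 2.

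The Rh complex genes Rhag, Rhd and Cd47 lay close together, and Icam4 lay far under them. Rhag (ENSMUSG00000023926, chromosome 17, 40811126 to 40840754, plus strand), an ammonia and gas channel that Rh proteins need to reach the membrane, had 27862 and 12597 counts, or 852.7 and 743.2 coding-scaled TPM. Rhd (ENSMUSG00000028825, chromosome 4, 134864536 to 134896172, plus strand), the mouse counterpart of the human RHD and RHCE genes, had 17095 and 8821 counts, or 883.0 and 860.4 coding-scaled TPM. Rhd therefore stood at 1.04 times the TPM of Rhag in replicate 1 and 1.16 times in replicate 2. By counts per base of gene length the ratio was 0.981 in replicate 1 and 1.11 in replicate 2, on either side of 1, so these 2 libraries did not fix which of the Rh partners was higher on every scale.

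Cd47 (ENSMUSG00000055447, chromosome 16, 49800533 to 49915010, plus strand) encodes the surface protein that tells macrophages, through their receptor SIRP-alpha, not to engulf a cell. It had 28985 and 16416 counts, or 700.4 and 764.2 coding-scaled TPM, and stood at 0.821 and 1.03 times the TPM of Rhag. Cd47 lay under Rhag in replicate 1 and above it in replicate 2, so their order was not settled. The level of Cd47 also rests on the estimated split between its 2 transcripts. Cd47-201, with 86.7% and 86.2% of the counts, stood at 324.8 and 356.5 coding-scaled TPM, and the shorter Cd47-202 at 375.6 and 407.8. Cd47 is made by most cell types, white cells included, and the neutrophil list above was present in both libraries; its part in the level of Cd47 was not tested. Cd47 was also the 1 gene of the 9 whose count carried an uncertainty from reads shared with other genes, with a posterior SD of 60.0 and 52.8 counts. The other 8 had a posterior SD of 0.

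Icam4 (ENSMUSG00000001014, chromosome 9, 21029373 to 21030595, plus strand), the Landsteiner-Wiener protein, binds integrins and takes part in the contact of erythroblasts with macrophages. It had 225 and 212 counts, or 20.6 and 36.3 coding-scaled TPM, the lowest values of the 9 in both libraries. In replicate 2 it was only just under Xk at 37.1. For each Rhag transcript there were 0.0242 of Icam4 in replicate 1 and 0.0488 in replicate 2. The annotated antisense gene Gm47079 spans all 971 exonic bases of Icam4 and was not analysed here. Whether counting used strand is not stated, so reads of the 2 strands cannot be told apart.

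The genes of the Kell pair, whose proteins join in a complex, were far from equal in RNA. Kel (ENSMUSG00000029866, chromosome 6, 41686330 to 41704339, minus strand), a zinc endopeptidase that cleaves big endothelin-3, had 31929 and 20647 counts, or 1056 and 1380 coding-scaled TPM. Xk (ENSMUSG00000015342, chromosome X, 9272756 to 9313250, plus strand), a membrane protein that works with VPS13A in moving lipids between bilayer leaflets and whose loss in humans causes McLeod syndrome, had 3620 and 1417 counts, or 48.7 and 37.1 coding-scaled TPM. By gene TPM there were 21.7 Kel transcripts for each of Xk in replicate 1 and 37.2 in replicate 2, so Kel was far above Xk in both libraries by a ratio that differed between them. Models not annotated as coding held 15.6% and 20.5% of Kel TPM. The coding transcript Kel-201 alone, at 880.6 and 1090 coding-scaled TPM, was also far above Xk.

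Reads also lay inside an intron of Kel. Gm37527, an unclassified model of 3547 bases on the same strand (chromosome 6, 41692640 to 41696186), lies wholly between exons 10 and 11 of the 19 exons of Kel-201 and shares no exonic base with Kel. It was looked up because it overlaps Kel, and is named with its values known. It had 18476 and 9732 counts, equal to 57.9% and 47.1% of those of Kel, or 362.0 and 369.8 TPM on the coding scale. These reads are separate from the Kel counts above.

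Ermap (ENSMUSG00000028644, chromosome 4, 119175457 to 119190011, minus strand) stood second in both libraries by gene total, with 59979 and 33152 counts or 1260 and 1386 coding-scaled TPM. That place rests on the sum over all its transcripts. Its leading coding transcript, Ermap-206, alone stood at 552.5 and 601.0, under Kel-201, that of Kel, at 880.6 and 1090. As a gene, Ermap led Kel only narrowly. The mean of Ermap lay near that of Kel at 1218 ± 229 (SD, n = 2), and the ranges of the 2 genes overlapped. By mean level the order was Slc4a1, Ermap, Kel, Rhd, Rhag, Cd47, Gypc, Xk, Icam4. The genes with GATA letters before their start, shown above for 4 of them, held places 2 to 5 and 9 of this order, and Cd47 and Xk, without such letters, held places 6 and 8. Of the 8 pairs of neighbours in this order, 6 did not overlap between libraries in coding-scaled TPM. The share of such pairs among neighbouring genes in general was not computed. Among the 6, Rhd and Rhag were apart only by 860.4 against 852.7, and by counts per base of gene length their order was not fixed. Ermap with Kel and Rhag with Cd47 did overlap, and Xk at 37.1 in replicate 2 lay just above Icam4 at 36.3 in the same library. In that library the deposited credibility bounds of the posterior TPM overlapped, 2.40 to 2.67 for Xk and 2.15 to 2.82 for Icam4. The order of Xk and Icam4 in replicate 2 was therefore not settled.

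**Figure D1:**
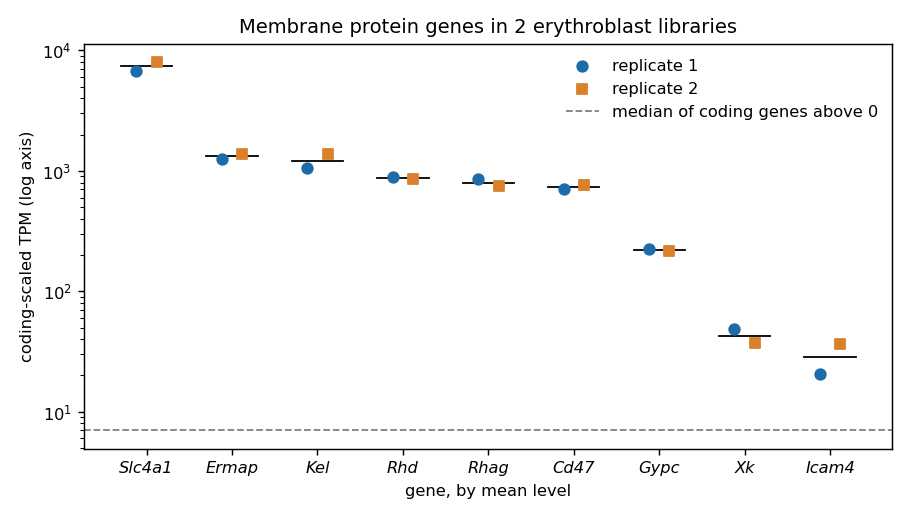
Level of each gene in coding-scaled TPM on a log axis, by gene in order of mean level; circles are replicate 1, squares replicate 2, black bars the mean, and the dashed line is the median of protein-coding genes above 0. Slc4a1 stands alone at 6811 and 7957, a group of 5 genes lies between 700.4 and 1386, and Xk and Icam4 lie between 20.6 and 48.7, still above the dashed line.

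The gene nearest to each in level was looked for among all other nuclear protein-coding genes, as the smallest summed difference in log2(coding-scaled TPM + 1) over the 2 libraries. Slc4a1 had no close neighbour: the nearest was the neutrophil gene S100a8 at 8719 and 7420, a summed distance of 0.457. The other 8 had a gene within 0.139, with Rhd nearest to Ube2l6 (889.3 and 863.5, a distance of 0.016) and Icam4 to Pik3ca (20.8 and 36.6, 0.023). The neighbours of the others were Herc1 for Ermap, Hist1h4f for Kel, Dhrs11 for Rhag, Rmc1 for Cd47, Ifrd2 for Gypc and Clic4 for Xk. Likeness over 2 libraries is a match of level and nothing more.

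Between the libraries, counts were scaled with TMM factors and compared as replicate 2 over replicate 1. None of the 9 genes was 2-fold or more apart. Among genes with a mean count of 100 or more, 10.5% of all 8203 genes were that far apart, and 8.54% of 7658 nuclear protein-coding genes, so a count of 0 in 9 is not far from the background share. The median log2 ratio of the 9 was 0.023, against -0.042 over the protein-coding genes, whose middle 50% ran from -0.363 to 0.249. Of the 9, 5 had ratios above 0 and 4 below.

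The ratios of 6 genes lay between the coding quartiles. Slc4a1 had a log2 ratio of 0.062 (95% counting interval 0.055 to 0.069), Ermap 0.023 (0.004 to 0.042) and Cd47 0.058 (0.030 to 0.086). Rhd, Rhag and Gypc were below 0 at -0.076, -0.267 and -0.091. Kel reached 0.249 (0.224 to 0.275), the quartile itself. The interval of each of the 7 excludes 0, even that of Ermap, which was 1.02 times as high in replicate 2.

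Xk and Icam4, the lowest in level, differed most. Xk had a log2 ratio of -0.475 (-0.564 to -0.386), 1.39 times as high in replicate 1. Icam4 had 0.792 (0.515 to 1.07), 1.73 times as high in replicate 2, and its 225 and 212 counts gave the widest interval. The upper end of that interval passes 2-fold. The deposited credibility bounds of the posterior TPM of Icam4, 2.02 to 2.62 in replicate 1 and 2.15 to 2.82 in replicate 2, overlap on the deposited scale. That scale is not adjusted for the protein-coding share of TPM, 11.3% in replicate 1 and 6.89% in replicate 2. The log2 ratio of Icam4 was 0.108 by deposited TPM and 0.815 by coding-scaled TPM. The overlap therefore holds for the deposited scale only.

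**Figure D2:**
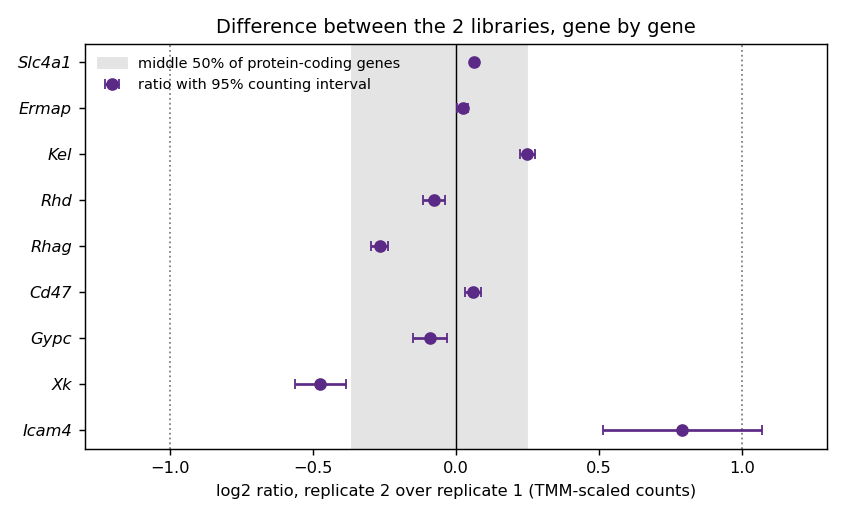
Log2 ratio of TMM-scaled counts, replicate 2 over replicate 1, for each gene with its 95% counting interval; the grey band holds the middle 50% of protein-coding genes of mean count 100 or more, and dotted lines mark 2-fold. Xk at -0.475 and Icam4 at 0.792 lie outside the band and Rhag, Rhd, Gypc, Ermap, Cd47 and Slc4a1 inside it, with Kel at its upper edge.

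Scaling set the sign of some ratios. Rhd, Rhag, Gypc and Xk were below 0 and Icam4 above 0 under all 6 scalings compared. Slc4a1, Ermap and Cd47 were below 0 by library size alone (-0.084, -0.123 and -0.088) and by deposited TPM, and Kel was below 0 by deposited TPM alone, at -0.321. By library size alone the median of all genes was -0.179. By deposited TPM it was -0.673 and that of the 9 was -0.581, and Xk alone was 2-fold or more lower in replicate 2, at -1.10, as were 28.8% of all genes. By TMM the median of all genes was -0.033, so by TMM and by deposited TPM the median of the 9 lay above that of all genes.

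IsoPct is the percent of a gene's TPM that the authors' estimate gives to a transcript, and the tables held 29 transcripts of the 9 genes. Rhag, Xk and Icam4 had 1 transcript each, and 6 genes had 2 or more. The leading transcript was the same in both libraries in all of these but Gypc, 1 of 6, against 27.3% of 1684 protein-coding genes with 2 or more transcripts and a mean count of 1000 or more. Of 19 transcripts with a mean count of 100 or more, 6 were 2-fold or more apart by TMM-scaled counts, against 27.9% of 11331 transcripts of protein-coding genes. The minimum for this count was chosen after the values were seen.

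Gypc had like levels in the libraries but not the same leading form. Gypc-202, of 2 exons and 234 coding bases, held 76.6% of Gypc TPM in replicate 1 and 29.0% in replicate 2, with 4917 and 927 estimated counts. Gypc-203, which adds an exon of 51 bases and has 285 coding bases, held 23.4% and 71.0%, with 1592 and 2397 counts. The posterior SD of these splits was 119 counts in replicate 1 and 147 in replicate 2, and the deposited credibility bounds did not overlap between the forms in either library. In replicate 1 they were 18.1 to 20.2 TPM for Gypc-202 and 5.01 to 6.82 for Gypc-203, while in replicate 2 they were 2.94 to 5.58 and 9.15 to 11.8. On the coding scale Gypc-202 stood at 171.8 and 62.4 and Gypc-203 at 52.6 and 152.4, while the gene as a whole stood at 224.5 and 214.8. A move of the leading share as large as that of Gypc was seen in 3.03% of the same 1684 genes, whose median move was 9.23 percentage points. Set against all listed transcripts of the gene, Gypc-202 has no base of its own, and Gypc-203 has 57. Against Gypc-202 alone, Gypc-203 shares 195 of 249 bases of its first exon, 0 of 51 of its second and 1877 of 1880 of its last. Most bases are therefore shared by both. The forms differ by 51 coding bases, a multiple of 3. The size ranges of the libraries also differed, and their part in this split was not tested.

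Slc4a1 was nearly all of 1 form. Slc4a1-201, of 20 exons and 2787 coding bases, held 97.3% of its TPM in replicate 1 and 91.6% in replicate 2, and 99.9% and 99.5% of its counts. Most of the rest in replicate 2 was Slc4a1-203, a non-coding model of 356 bases that starts 1576 bases downstream of the leading start, in intron 1, with exons of 40 and 53 bases of its own. It had 78.5 and 863 estimated counts, with posterior SDs of 12.2 and 100.2, or 0.45% and 6.82% of Slc4a1 TPM. Its log2 ratio of 4.35 was the furthest from 0 of the 19 transcripts. As a share of Slc4a1 counts it was 0.0179% and 0.346%, far below its share of TPM, at effective lengths of 167 and 205 bases. Slc4a1-202, which starts 33 bases downstream, held 0.46% and 1.3%, and Slc4a1-204, which starts 4712 bases downstream, had 0 and 8.41 counts. Slc4a1-205, a non-coding model that starts upstream and is named with its values known, was higher in replicate 1, with 1.83% and 0.19% of TPM and 84.0 and 9.01 counts.

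Ermap was spread over the most forms. Of its 9 transcripts, 6 had counts in both libraries. The coding transcript Ermap-206, with 1776 coding bases, held 43.9% and 43.4% of Ermap TPM, the least different leading share among the genes with several forms apart from Cd47. Ermap-203, which keeps an intron, held 13.9% and 26.5%, with 7091 and 7695 counts. Ermap-201, annotated as a target of nonsense-mediated decay, held 17.6% and 8.43%, with 14088 and 3824 counts. Models annotated as retained introns or targets of decay together held 35.2% of Ermap TPM in replicate 1 and 37.8% in replicate 2. Their sum differed less than the share of Ermap-203 or that of Ermap-201. Ermap-209, a short coding model of 637 bases with 322 coding bases, is not part of that sum. It held 20.9% and 18.8% of TPM but 2.99% and 2.95% of counts.

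Ermap-201 differs from Ermap-206 in the outer ends of exons 1 and 13 and in the end of exon 7, which is shown here because it lies inside the transcript. The sequences are from GENCODE M21 transcripts on GRCm38, minus strand, with the 4 bases that Ermap-206 has and Ermap-201 lacks in capitals. The retained-intron form Ermap-203 also holds these 4 bases.
Ermap-206 exon 7, chr4:119183306-119183338: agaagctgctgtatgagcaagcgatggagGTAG
Ermap-201 exon 7, chr4:119183310-119183338: agaagctgctgtatgagcaagcgatggag

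The exon has 33 bases in Ermap-206 and 29 in Ermap-201, and only the first is a multiple of 3. Ermap-201 has no base of its own, and the posterior SD of its count was 403 in replicate 1 and 237 in replicate 2. Its TMM log2 ratio was -1.003, and that of Ermap-203 was 0.996, on either side of 0 and each at about 2-fold. Ermap-206 itself had 0.040. The gene-level ratio of Ermap, 0.023, therefore held opposite ratios of these 2 forms.

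Kel, Rhd and Cd47 had much the same shares in both libraries. Kel-201 held 83.4% and 79.0% of Kel TPM and 98.1% and 97.3% of its counts. Kel-203, a retained-intron model of 384 bases, held 15.3% and 18.4% of TPM but 477 and 458 counts. Rhd-201 held 93.8% and 95.2% of Rhd TPM, and the retained-intron model Rhd-202 held 6.24% and 4.83%. Cd47-202 held 53.6% and 53.4% of Cd47 TPM but 13.3% and 13.8% of its counts, since the table gives it 867 bases against 5277 for Cd47-201. Cd47-201 held 46.4% and 46.6% of TPM. Neither length of Cd47 matches GENCODE M21, and the 2 forms are given here as the deposited tables define them.

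**Figure D3:**
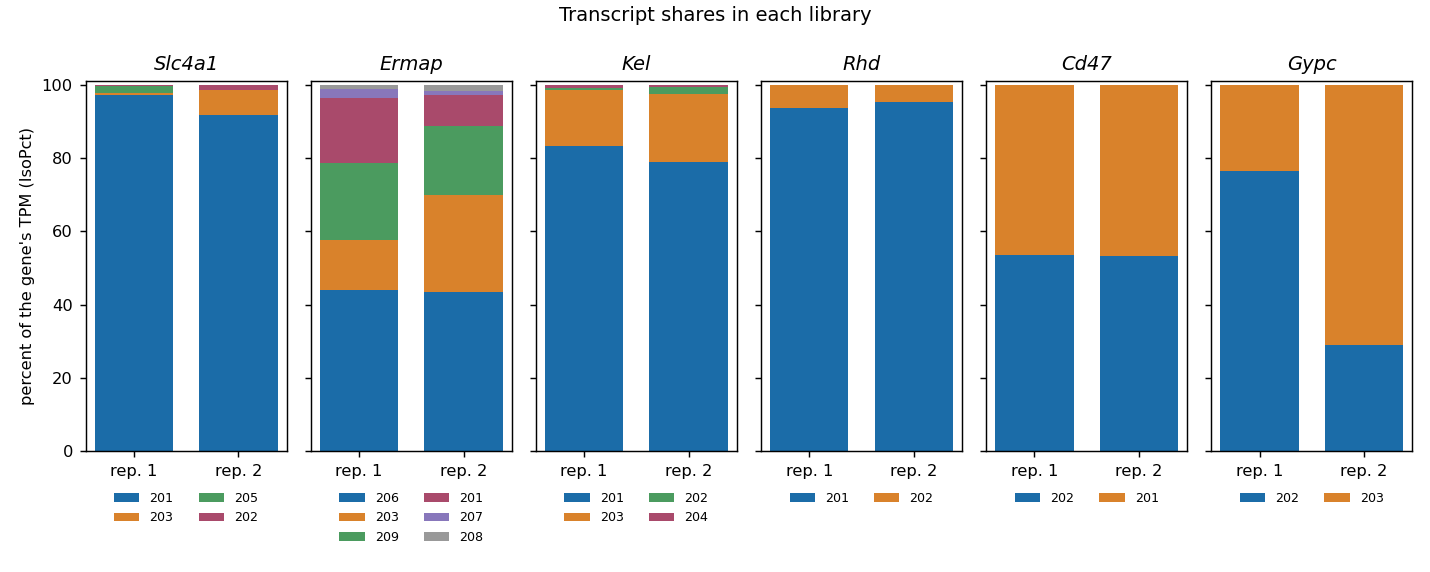
Percent of each gene's TPM held by each of its transcripts (IsoPct), by library, for the 6 genes with 2 or more transcripts; colours are transcripts by their GENCODE number, and those under 1% in both libraries are not drawn. Gypc-202 fills 76.6% of the Gypc bar in replicate 1 and 29.0% in replicate 2, while both Cd47 bars are divided alike.

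RNA of the proteins that band 3 and glycophorin C bind was measured for a list of 14 genes. All 14 were detected, with medians of 623.5 and 913.7 coding-scaled TPM. Epb41, protein 4.1 that holds glycophorin C, was highest at 3273 ± 78.5 (SD, n = 2), against 219.6 for Gypc itself. Mpp1, the p55 protein that joins the same complex, stood at 404.1 and 748.2. Slc2a1, the glucose transporter that red cells of adult humans carry, was lowest at 1.96 and 1.16, with 71 and 23 counts. None of the 13 partners with a mean count of 100 or more was 2-fold apart, which is not far from the 8.54% of protein-coding genes given above.

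Other carriers of blood group antigens covered a wider range. Of 27 such genes, 22 were detected. The medians over all 27 were 46.9 and 34.5 coding-scaled TPM, close to the level of Xk and under those of the 7 genes above it. Bsg, basigin, a chaperone of lactate transporters that carries the Ok antigen in humans, was highest at 890.1 ± 58.4 (SD, n = 2), and Pigg was the lowest detected, at 2.48 ± 0.638. Abo, B4galnt2, Bcam and Aqp3 had 0 counts in both libraries. By TMM-scaled counts, 2 of the 22 with a mean count of 100 or more were 2-fold apart, near the 8.54% of protein-coding genes. These were Smim1, with the Vel antigen in humans, and Gcnt2, the I branching enzyme, named with their values known. Their log2 ratios were 1.15 and 1.38. In coding-scaled TPM, Smim1 stood at 10.22 and 12.04, less than 2-fold apart. Gcnt2 stood at 2.221 and 6.237, more than 2-fold apart on that scale too.

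The counts of detected relatives that follow stand beside the 43.9% of protein-coding genes detected. Rhbg and Rhcg, the Rh glycoproteins of kidney and liver, had 0 and 0 counts and 8 and 0 counts. Of 10 genes of the SLC4 list, 3 were detected: the adaptor Slc4a1ap at 45.0 ± 17.8 coding-scaled TPM, the exchanger Slc4a2 at 10.95 ± 6.06 and the bicarbonate cotransporter Slc4a7 at 3.31 ± 0.656. Slc4a3, Slc4a5, Slc4a8 and Slc4a10 had at most 22 counts in either library, and Slc4a4, Slc4a9 and Slc4a11 had 0. Slc4a1 stood far above each of these 10 genes.

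Of 8 genes with Xk relatives and its partner, Vps13a, the lipid transfer protein, stood at 9.96 ± 2.53 and Xkr5 at 1.48 ± 0.0426, while Xkr8, a caspase-activated scramblase, was under the detection limit and Xkrx, Xkr4, Xkr6, Xkr7 and Xkr9 had 0 counts. Of 6 relatives of Kel in the neprilysin family, Mmel1 was detected, at 10.5 and 7.40. Ece1 and Mme were under 1 coding-scaled TPM in replicate 1 and at 2.18 in replicate 2. Ece2 had 12 and 9 counts, Phex 55 and 0, and Ecel1 had 0 in both libraries.

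Ermap had 1 abundant relative. Btnl10, another butyrophilin-like gene, stood at 588.5 and 515.7 coding-scaled TPM, with 35331 and 15679 counts, while Btn1a1 stood at 11.5 ± 6.65, Btnl9 at 4.57 ± 1.94, and Btn2a2 had 0 counts. Of 11 ligands and relatives of Icam4 and Cd47, 10 were detected, and of the 8 with a mean count of 100 or more 1 was 2-fold apart, the integrin gene Itgal at a log2 ratio of -1.24, named with its values known. Itga4, an integrin subunit of erythroblasts that pairs with Itgb1, was highest at 359 ± 65.0. Sirpa, the receptor of CD47 found on macrophages and other myeloid cells, stood at 65.0 and 47.0, and Icam1, the lowest detected, at 2.40 and 2.32. Icam4 at 20.6 and 36.3 lay above Icam1, above Icam2 at 4.27 and 14.4 and above Icam5 at 4.89 and 5.66 in both libraries.

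**Figure D4:**
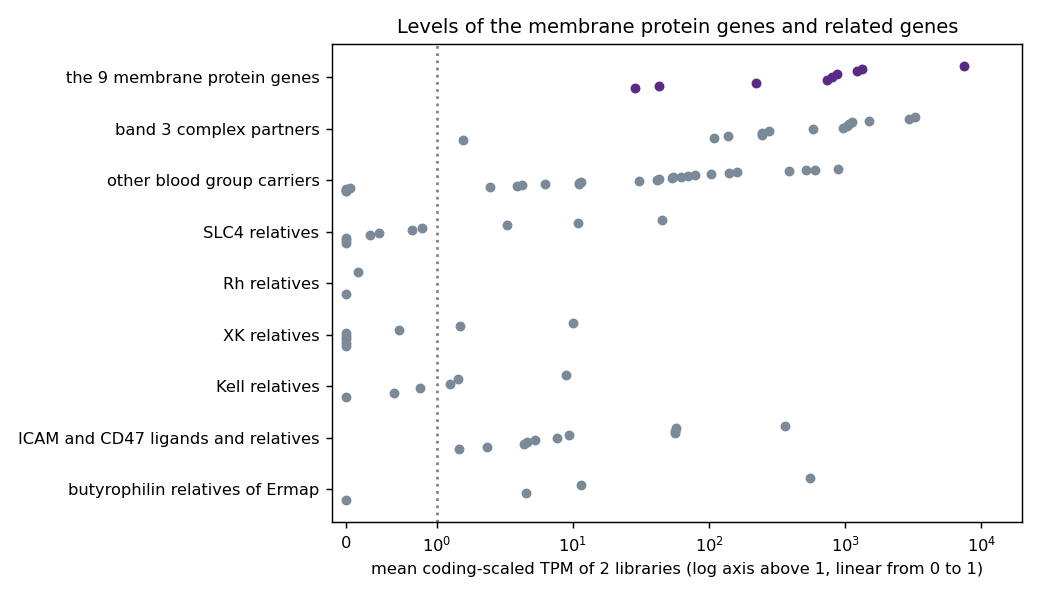
Mean coding-scaled TPM over the 2 libraries of the 9 membrane protein genes, in purple at the top, and of each list of related genes, in grey; the axis is logarithmic above 1 and linear from 0 to 1, and the dotted line marks 1. The 9 genes span 28.4 to 7384, the 14 band 3 complex partners span 108.7 to 3273 but for Slc2a1 at 1.56, and the Rh relatives lie at or near 0.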

How the data were processed

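Total RNA of 2 erythroblast libraries, 1 group by the labels, was analysed from the gene table and the transcript table of each library. Per the deposited text records, the assembly was mm10 and the annotation GENCODE M4, and no libraries were pooled. Neither the aligner nor the quantification program is given in the sources used here. The deposited tables list, per the file headers, expected counts with a posterior mean and its SD, TPM and FPKM. IsoPct, per the file headers, is a transcript's percent of the TPM of its gene. The deposited credibility bounds of the posterior TPM were treated as a score and only copied.

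Of 43346 Ensembl genes, 42462 (98.0%) matched GENCODE M21, on the same assembly, by identifier without version, and it gave symbols, positions and transcript structures. Of the 29 transcripts of the 9 genes, 26 had the same length in M21. Other features held 8 and 28 counts and were left out of totals. From the tables were computed coding-scaled TPM and TMM-scaled ratios, with counts rounded to whole numbers for TMM factors (edgeR 4.0.16, R 4.3.3). Ratios have exact Clopper-Pearson 95% intervals, which treat reads as independent and the scaling factors as fixed. No molecular identifiers are given, so repeated copies of 1 molecule cannot be told apart and the intervals may be too narrow. Levels of neighbours were called separate where the 2 libraries of each did not overlap. DESeq2 1.42.0 size factors were an alternative. Tables and figures were made in Python 3.11.15 (pandas 2.3.3, numpy 2.4.6, matplotlib 3.10.9, scipy 1.17.1), and the ratio function was tested on simulated data.

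The 9 genes and the related lists were chosen with earlier results of these data known. Named are the 9 genes, their nearest genes in level, from each related list the highest, the lowest detected and those at 0 counts, and all genes of lists of 10 or fewer. Sirpa, Itgb1, Icam2, Icam5, Mpp1, Smim1, Gcnt2, Itgal, Slc4a1-205, Gm37527 and Gm47079 were named with their values known or as partners and overlaps. Transcripts named are leading ones, those of a mean IsoPct of 5 or more, and downstream starts of Slc4a1. Promoter windows are those of RefSeq on GRCm38.p6. Protein sequences were not used here, and 1 gene of the related lists is not reported here.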

Additional observations from a re-analysis of the deposited data

How the results depend on the processing

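The median level of the 9 genes was 808.4 coding-scaled TPM and became 1265 with the adult globins left out of the scaling sum, which raises every gene. Without replicate 1 it was 764.2, and without replicate 2 it was 852.7. The median log2 ratio of 0.023 became -0.123 by library size alone, -0.581 by deposited TPM and 0.126 by coding-scaled TPM. The count of genes 2-fold or more apart was 0 and became 1, Xk, by deposited TPM. With DESeq2 size factors, library size alone, coding-scaled TPM and posterior mean counts it was 0. Leaving out the filter on low counts could not change it, because all 9 genes pass that filter. Without the filter, 24.6% of 12831 genes were 2-fold or more apart. Shares of the leading transcript taken over expected counts were 99.7% for Slc4a1, 61.5% for Ermap, 97.7% for Kel, 97.8% for Rhd and 13.6% for Cd47-202, against 53.5% of TPM; Cd47-202 is the shorter of the 2 forms. Icam4 rests on 225 and 212 counts, the least depth of the 9. No paired analysis was possible because the labels give 1 group, and ratios cannot be computed without either replicate.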
